A study of Mus musculus with 6 samples.

Results

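The 10 genes described here encode the machinery that loads peptides of the cell's own proteins onto class I MHC molecules: the class I heavy chains H2-K1 and H2-D1, the shared light chain B2m, the peptide transporter and loading genes Tap1, Tap2 and Tapbp, the immunoproteasome subunits Psmb8, Psmb9 and Psmb10, and the transcriptional activator Nlrc5. They were chosen by gene symbol from the 51810 genes of the authors' table, and all 10 were found and passed the filter on low counts. Their levels were measured by mRNA sequencing in 6 libraries of mouse thymic epithelium, 3 from mice labelled P53-WT whose sample titles mark them as lacking Cre (WT) and 3 from mice labelled P53-cKO, a conditional deletion of Trp53, the gene of the transcription factor p53 (cKO). Mice of both genotypes were 4 to 5 weeks old, and 75000 cells labelled mTEChi, the mature medullary thymic epithelial cells, were sorted for each library after enrichment for the surface protein EpCAM. The labels name neither the Cre driver nor the mouse strain, and they do not say whether Cre-free mice carried floxed alleles or whether animals were pooled, so p-values measure the spread between these libraries, which may be technical in part.

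Class I molecules are displayed by nearly all nucleated cells and are read by CD8 T cells. Cytosolic proteins are cut by the proteasome, the fragments are pumped into the endoplasmic reticulum by the TAP transporter, and tapasin, the product of Tapbp, holds empty class I molecules beside the transporter until a peptide fits. In the immunoproteasome the subunits encoded by Psmb8, Psmb9 and Psmb10 take the places of the standard subunits encoded by Psmb5, Psmb6 and Psmb7, which changes the peptides made. NLRC5 switches on many of these genes through a promoter module shared by class I genes, and interferons raise the whole set. Medullary epithelial cells use this display to test developing T cells against proteins of other tissues. In human cells TAP1 and ERAP1 have been described as genes that p53 can induce.

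The promoters of the 3 genes that make the class I molecule itself are shown because 2 boxes of that module lie at the same spacing in each. Each window runs from 250 bases before to 50 bases after the gene's start, as listed by RefSeq for GRCm38.p6, the build also called mm10. Capitals mark TGACG, the core of the X2 box, and ATTGG, the reversed CCAAT core of the Y box, where they lie 20 bases apart, together with the NF-kB motif GGGATTCCC and 2 forms of the interferon response motif, GAANNGAAA and a longer form in which GAAA is followed after 2 bases by GAAA again, all searched on both strands.
H2-K1, chr17:34000298-34000597, minus strand: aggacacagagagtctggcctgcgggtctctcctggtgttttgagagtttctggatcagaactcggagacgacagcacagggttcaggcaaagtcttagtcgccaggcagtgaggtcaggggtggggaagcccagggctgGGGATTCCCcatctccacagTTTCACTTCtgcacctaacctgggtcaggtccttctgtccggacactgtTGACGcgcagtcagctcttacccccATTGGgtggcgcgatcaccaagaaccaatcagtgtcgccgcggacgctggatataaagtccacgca
H2-D1, chr17:35262844-35263143, plus strand: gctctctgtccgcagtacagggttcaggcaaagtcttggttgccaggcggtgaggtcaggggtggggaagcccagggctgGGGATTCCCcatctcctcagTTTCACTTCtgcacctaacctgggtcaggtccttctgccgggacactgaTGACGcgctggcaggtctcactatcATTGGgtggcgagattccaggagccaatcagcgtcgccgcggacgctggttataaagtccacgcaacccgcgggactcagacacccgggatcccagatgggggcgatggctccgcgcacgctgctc
B2m, chr2:122147437-122147736, plus strand: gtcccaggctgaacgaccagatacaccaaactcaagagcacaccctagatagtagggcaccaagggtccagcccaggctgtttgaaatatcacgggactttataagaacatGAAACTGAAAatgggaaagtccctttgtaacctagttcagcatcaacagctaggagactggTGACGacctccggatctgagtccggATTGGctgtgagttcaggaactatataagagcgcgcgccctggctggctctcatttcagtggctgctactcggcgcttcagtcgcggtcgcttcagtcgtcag

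The spacing of 20 bases was read from these windows, so that all 3 carry it is a description. Relative to the listed start, the pair begins at −41 in H2-K1, −101 in H2-D1 and −78 in B2m. In H2-K1 and H2-D1 the NF-kB motif, the interferon motif and the pair lie at the same distances from each other. They begin at −110, −90 and −41 in H2-K1 and at −170, −150 and −101 in H2-D1, so only the distance to the listed start differs. Of 27025 RefSeq promoter windows of the same length, 26 held the pair (0.0962%). The 26 include these 3 windows and that of the class I gene H2-M3. Most of the others belong to genes outside class I. Within the 30 bases of the pair, H2-K1 and H2-D1 had the same base at 23 positions, H2-K1 and B2m at 13, and H2-D1 and B2m at 12. The NF-kB motif in the exact letters given above was in the H2-K1 and H2-D1 windows and in 0.37% of all windows. Other forms of it were not counted. The interferon form GAANNGAAA was in the same 2 members and in 7.56% of all windows. The longer form was in the B2m window and in 3.49% of all windows. Windows were listed for 8 of the 10 members; Tap2 and Nlrc5 had none. The listed starts of Tap1 and Psmb9 lie 226 bases apart on opposite strands, so their windows share 275 bases. Neither holds the pair. Both hold TGACG alone, at the same site within the shared bases, and 21% of all windows hold TGACG. No window of the 8 held the repeat unit of the p53 response element, which was found in 8.37% of all windows; this says only that these letters are not in these windows.

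The libraries held 45457892 to 50128045 counts. Trp53 itself was counted 5351, 4837 and 5314 times in WT libraries 1 to 3, against 386, 361 and 369 times in cKO libraries 1 to 3, and no library went against its label. Markers of mature medullary cells were high in all 6 libraries, with Cd74 at 21855 to 23241 TPM (counts per exon length, scaled to the same sum in each library), Aire at 495 to 861 TPM and Cd80 at 114 to 163 TPM. The cortical subunit gene Psmb11 lay at 5.57 to 9.18 TPM. Together, 8 cortical markers including Psmb11 summed to 384 to 405 TPM in WT and 339 to 368 TPM in cKO. These 2 ranges did not overlap. Of the 8 markers, only Foxn1 separated by group in CPM (counts scaled to library size), beside 14.4% of all genes tested. It averaged 199 ± 15.8 CPM in WT and 137 ± 9.64 CPM in cKO. The sum without Foxn1 was not taken. The summed level of 12 thymocyte markers was 52.2 to 99.9 TPM in WT and 53.9 to 91.8 TPM in cKO, and that of 6 B cell markers 52.2 to 62.8 and 52.2 to 57.3 TPM. The sum of 10 myeloid markers was 843 to 1091 TPM in WT and 1034 to 1497 TPM in cKO, most of it Lyz2 at 769 to 1412 TPM over all libraries, and 7 fibroblast and endothelial markers summed to 51.5 to 53.7 and 47.7 to 54.4 TPM. No marker of these lists was at 0 in all libraries, and these cells also carry class I; their part in the levels below was not tested. In bulk RNA, fewer cells of a type and less RNA per cell cannot be told apart.

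No class I presentation gene differed detectably between cKO and WT. None of the 10 members passed an adjusted p of 0.05 in edgeR's quasi-likelihood test (adjusted p between 0.775 and 0.996), and none had an unadjusted p under 0.05 in edgeR, DESeq2 or limma-voom. Over all 28543 genes tested, 17 passed (0.0596%), 7 higher (0.0245%) and 10 lower (0.035%) in cKO, and 8.51% had an unadjusted p under 0.05. The log2 fold changes of the members, cKO over WT, ran from −0.23 to 0.11 with a median of 0.011, beside a median of −0.0053 over all genes tested. In 6 of the 10 the fold change was above 0, against 49% of all genes tested and 61.6% of the 3423 genes whose mean level was at least that of the lowest member. In none of the 10 did the 3 WT and the 3 cKO libraries separate without overlap. Of all genes 14.4% did so, 7.14% with cKO higher, and of the 3423 genes just named 736 did so. The 10 members are too few to set 0 apart from these shares. DESeq2 and the edgeR fit with the replicate number as a block also called none of the 10, beside 0.808% and 0.711% of the genes they tested. For 9 of the 10 members the 95% interval of the difference lay between folds of 0.836 (Nlrc5) and 1.23 (Tapbp); Psmb10 was the exception.

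**Figure D1:**
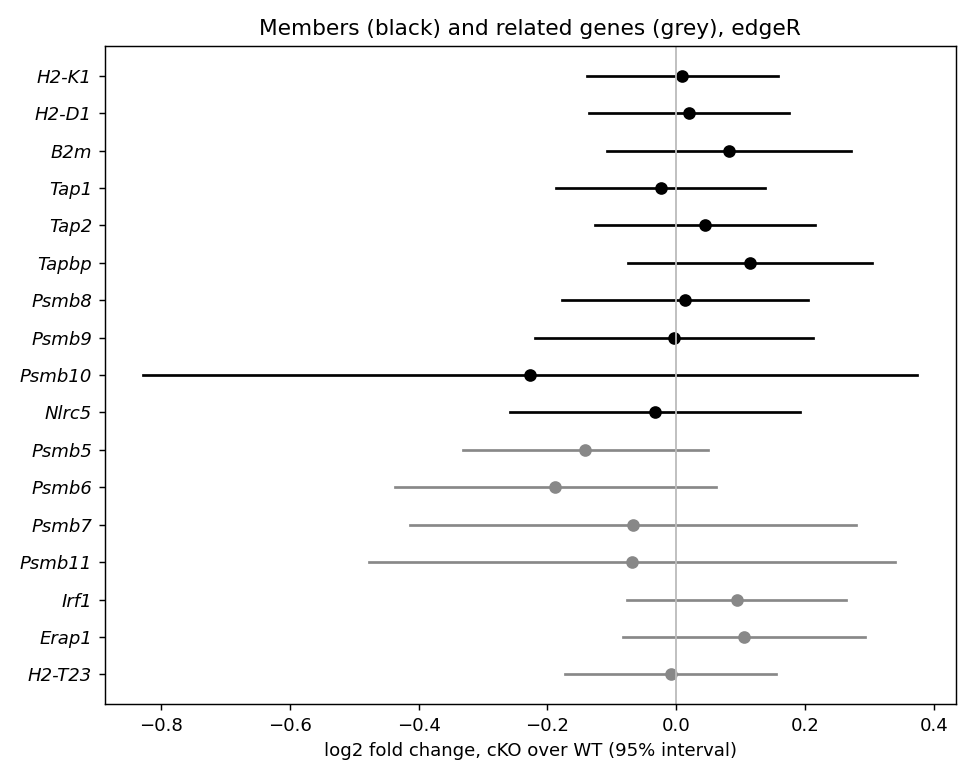
Log2 fold change of cKO over WT with its 95% interval from the edgeR fit, for the 10 members (black) and 7 related genes (grey). Every interval crosses 0, and that of Psmb10, from −0.83 to 0.37, is the widest among the members.

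The class I heavy chains had the smallest standard errors of the 10 members. H2-K1 (ENSMUSG00000061232, chromosome 17, 33996017 to 34000347, minus strand) had 3243, 3334 and 3195 TPM in WT libraries 1 to 3 and 3354, 3370 and 3280 TPM in cKO libraries 1 to 3. Its 6 values lay within 1.05-fold of each other and the groups overlapped. With TMM scaling it stood at 4247 ± 186 CPM (counts scaled to library size) in WT against 4275 ± 17.5 CPM in cKO (SD, n = 3 each), a log2 fold change of 0.0095 (SE 0.0683, 95% interval −0.14 to 0.16, edgeR adjusted p = 0.987). The sign of so small a difference turned with upper-quartile scaling and with scaling by library totals. H2-D1 (ENSMUSG00000073411, chromosome 17, 35262730 to 35267499, plus strand), the other classical heavy chain, had 2103, 2231 and 2218 TPM in WT and 2250, 2308 and 2205 TPM in cKO. WT library 1 was the lowest, and the remaining 5 values lay within the range of 2205 to 2308 TPM. The WT mean was 2501 ± 149 CPM against 2536 ± 21.1 CPM for cKO (log2 fold change 0.020, SE 0.0715, 95% interval −0.13 to 0.18, adjusted p = 0.968).

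H2-K1 made up 59.9 ± 0.821% of the summed TPM of H2-K1 and H2-D1 in WT and 59.7 ± 0.274% in cKO (SD, n = 3 each; 2-sided exact permutation test, p = 0.7). Class I genes are alike in sequence and differ between mouse strains, and the option to count reads with several alignments was not set. Of all 50-base words in the transcripts of H2-K1, 9.63% also occur in other genes, and of those of H2-D1 12.8%, so both values are uncertain where reads fit a relative.

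B2m, the light chain that every class I molecule needs (ENSMUSG00000060802, chromosome 2, 122147686 to 122153083, plus strand), was the third most abundant transcript of the table by mean TPM. It had 15696, 17977 and 16405 TPM in WT and 16554, 18502 and 18864 TPM in cKO. The highest 2 values were in cKO, but WT library 2 lay above cKO library 1, so the groups overlapped. The WT mean was 6377 ± 619 CPM against 6748 ± 531 CPM for cKO (log2 fold change 0.082, SE 0.0874, 95% interval −0.11 to 0.27, adjusted p = 0.858). It was 0.018 without WT library 1, 0.030 without cKO library 3, 0.143 without cKO library 1 and 0.16 without WT library 2. B2m had no 50-base word in common with another gene. Per summed TPM of H2-K1 and H2-D1, B2m stood at 3.07 ± 0.1505 in WT and 3.22 ± 0.245 in cKO (exact permutation p = 0.4). This ratio was higher in cKO in 3 of 3 same-numbered libraries, which the labels do not pair (exact sign-flip p = 0.25, the smallest possible). The difference of 0.152 was 0.0409 without cKO library 3, 0.0871 without WT library 1, 0.2345 without WT library 2 and 0.284 without cKO library 1.

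**Figure D2:**
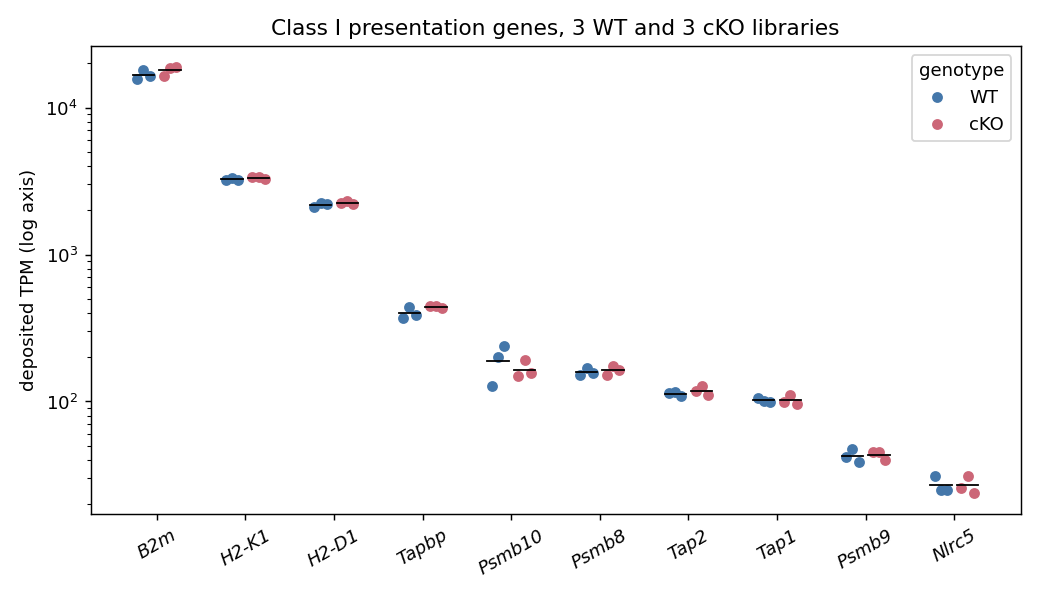
Deposited TPM of each member in every library on a log axis, WT in blue and cKO in red, with group means as bars. Levels run from B2m at 15696 to 18864 TPM down to Nlrc5 at 23.97 to 31.3 TPM, and the points of both genotypes overlap for all 10 genes.

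None of the 3 peptide loading genes passed the test. Tapbp, the tapasin gene (ENSMUSG00000024308, chromosome 17, 33915899 to 33929292, plus strand), had 370, 442 and 389 TPM in WT and 445, 445 and 434 TPM in cKO. The cKO libraries were close together, and WT library 2 reached into their range while WT libraries 1 and 3 lay below it. At 645 ± 77.0 CPM in WT and 699 ± 3.82 CPM in cKO, Tapbp had the smallest p of the 10 members (log2 fold change 0.11, SE 0.0872, 95% interval −0.075 to 0.30, unadjusted p = 0.214, adjusted p = 0.775). The log2 fold change was 0.040 without WT library 1 and 0.21 without WT library 2. Counting ignored strand, and 24.9% of the exon bases of Tapbp overlap those of the antisense gene Gm19412, which had 2671 to 4235 counts, against 26651 to 35071 for Tapbp.

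Tap1 (ENSMUSG00000037321, chromosome 17, 34187553 to 34197225, plus strand), one chain of the transporter and the member with a reported p53 link in human cells, had 106, 101 and 99.7 TPM in WT and 99.8, 111 and 96.2 TPM in cKO. Both the highest and the lowest value were in cKO. The WT mean was 248 ± 4.44 CPM against 244 ± 14.5 CPM for cKO (log2 fold change −0.024, SE 0.0751, 95% interval −0.19 to 0.14, adjusted p = 0.964). The lower end of that interval is a fold of 0.878. Tap2 (ENSMUSG00000024339, chromosome 17, 34203527 to 34216321, plus strand), the partner chain, had 113, 117 and 109 TPM in WT and 117, 128 and 111 TPM in cKO, with a log2 fold change of 0.045 (SE 0.0788, 95% interval −0.13 to 0.22, adjusted p = 0.925). The TPM of Tap1 divided by that of Tap2 was 0.905 ± 0.0347 in WT and 0.862 ± 0.00886 in cKO (exact permutation p = 0.2, where 0.1 is the smallest possible with 3 against 3). The ratio was lower in cKO in 3 of 3 same-numbered libraries, which the labels do not pair (exact sign-flip p = 0.25). WT library 2 at 0.867 lay below cKO library 3 at 0.870. Exons of the antisense genes Gm15821 and Gm20496 cover 14.1% and 4.36% of the exon bases of Tap2. Those of Psmb9 cover 3.87% of the exon bases of Tap1.

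Of the immunoproteasome subunits, Psmb10 varied most between libraries. Its highest TPM was 1.896 times its lowest, against 1.16 times for Psmb8 and 1.23 times for Psmb9. Psmb8 (ENSMUSG00000024338, chromosome 17, 34197721 to 34201454, plus strand) encodes the subunit with chymotrypsin-like activity and had 151, 170 and 155 TPM in WT and 151, 175 and 164 TPM in cKO. The lowest library of each group was at the same level. Its log2 fold change was 0.013 (SE 0.0882, 95% interval −0.18 to 0.20, adjusted p = 0.985), with 14.7% of its exon bases shared with the antisense gene Gm20496. Psmb9 (ENSMUSG00000096727, chromosome 17, 34181987 to 34187764, minus strand), which starts beside Tap1, had 42.2, 47.5 and 38.6 TPM in WT and 45.4, 45.0 and 39.8 TPM in cKO. Its cKO values lay inside the WT range (log2 fold change −0.0039, SE 0.0996, 95% interval −0.22 to 0.21, adjusted p = 0.996). Exons of Tap1, on the opposite strand, cover 5.79% of the exon bases of Psmb9. Tap1 had 11212 to 12002 counts, against 3063 to 3737 for Psmb9.

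Psmb10 (ENSMUSG00000031897, chromosome 8, 105935735 to 105938444, minus strand), the subunit that replaces the product of Psmb7, had 127, 200 and 240 TPM in WT and 149, 190 and 155 TPM in cKO. Both the lowest and the highest library were WT, 1.896-fold apart, and the 3 cKO libraries lay between them. The WT mean was 143 ± 46.0 CPM against 123 ± 15.1 CPM for cKO (log2 fold change −0.23, SE 0.248, 95% interval −0.83 to 0.37, adjusted p = 0.867). The interval allows a fold from 0.564 to 1.30, so a change of moderate size was not detectable here. One library moved the value by more than 1.5 times: the log2 fold change was −0.46 without WT library 1 (adjusted p = 0.338), −0.016 without WT library 3 (adjusted p = 0.998), and −0.17 without WT library 2. Psmb10 shared no exon base and no 50-base word with another gene. Its standard counterpart Psmb7 was also lowest in WT library 1, but highest in WT library 2, at 63.9, 95.9 and 83.2 TPM in WT and 75.7, 90.8 and 70.5 TPM in cKO. Exons of the antisense gene Nek6 cover 11.8% of the exon bases of Psmb7. Nek6 had 2739 to 4495 counts, also lowest in WT library 1 and highest in WT library 2. Its part in the Psmb7 counts was not tested.

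**Figure D3:**
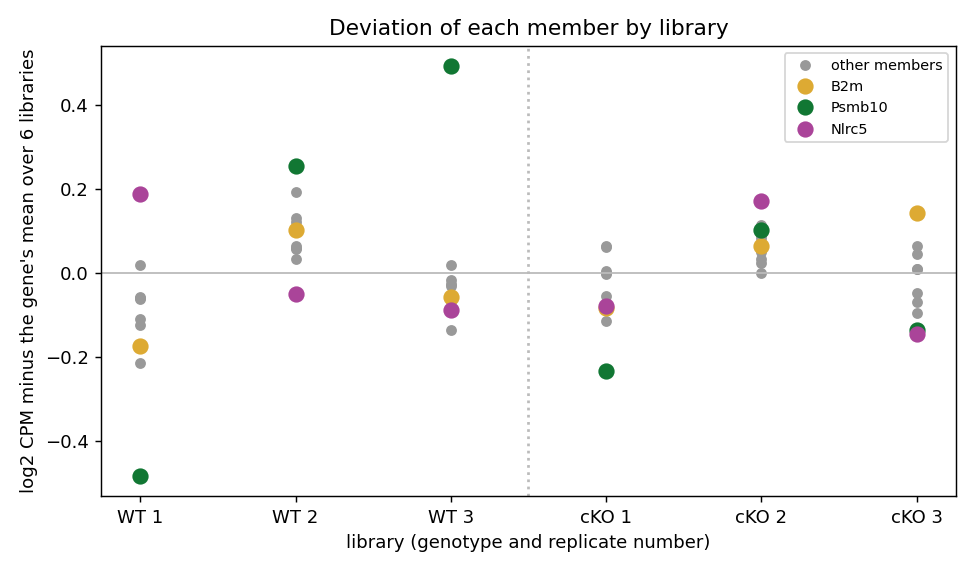
Log2 CPM of each member minus its mean over the 6 libraries, by library, with Psmb10, Nlrc5 and B2m coloured and the other members grey; the dotted line separates WT from cKO. Psmb10 runs from −0.48 in WT library 1 to 0.49 in WT library 3, while the grey members stay between −0.21 and 0.19.

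Nlrc5, the transactivator (ENSMUSG00000074151, chromosome 8, 94434356 to 94527272, plus strand), was the lowest member, at 31.3, 25.1 and 24.9 TPM in WT and 25.8, 30.9 and 23.97 TPM in cKO. One library of each group stood above the others, WT library 1 and cKO library 2. The WT mean was 102 ± 10.9 CPM against 99.6 ± 11.8 CPM for cKO (log2 fold change −0.033, SE 0.104, 95% interval −0.26 to 0.19, adjusted p = 0.965). In WT library 1, where Nlrc5 had its highest level, 6 of the 10 members had their lowest TMM-scaled level.

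Ordered by mean TPM, the members ran B2m, H2-K1, H2-D1, Tapbp, Psmb10, Psmb8, Tap2, Tap1, Psmb9 and Nlrc5. The ranges over all 6 libraries of neighbours in this order were separate except for Psmb10 and Psmb8, which took either order in 3 libraries each, and Tap2 and Tap1, whose ranges overlapped although Tap2 was higher in 6 of 6 libraries. TPM divides by the summed length of all annotated exons, which for Psmb9 was 2.71 times, for Psmb8 2.08 times and for Tap1 1.85 times the principal transcript. With principal transcript lengths, Psmb8 moved above Psmb10 and Tap1 above Tap2, and the other 6 kept their places. Summed over the 10 members, the level was 23167 ± 1355 TPM in WT and 24623 ± 1240 TPM in cKO (exact permutation p = 0.2), or 2.20% to 2.54% of all TPM, and B2m was the largest part of it. The difference of 1455 TPM was 459 with TMM-scaled counts per kilobase in place of TPM and 470.0 with principal transcript lengths (exact permutation p = 0.6 for both), 863 without WT library 1, and 2194 without WT library 2.

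The balance between immunoproteasome and standard proteasome was compared at each catalytic position within each library. Psmb8 took 46.8%, 47.2% and 45.5% of the summed TPM of Psmb8 and Psmb5 in WT and 46.9%, 50.1% and 50.6% in cKO. These are 46.5 ± 0.909% and 49.2 ± 2.004% (exact permutation p = 0.2), with WT library 2 above cKO library 1. The share was higher in cKO in 3 of 3 same-numbered libraries, which the labels do not pair (exact sign-flip p = 0.25). Psmb9 took 19.3 ± 0.405% of the sum with Psmb6 in WT and 21.6 ± 3.44% in cKO (p = 0.4, exact permutation), and cKO library 2, at 25.4%, stood above the other 5 libraries, which lay between 18.6% and 20.98%. Without that library the difference was 0.499 percentage points in place of 2.36. Psmb10 took 69.4 ± 4.22% of the sum with Psmb7 in WT and 67.6 ± 1.245% in cKO (exact permutation p = 0.7). Adjusted over the 7 ratios and sums compared, p was 0.467 or more for each, and no value under 0.1 was possible. With principal transcript lengths the WT shares were 64.4%, 21.6% and 50.2%, so the height of a share depends on the length used. None of the 3 differences changed sign, but a length that is the same in all libraries could hardly turn one. The value of Psmb5 is uncertain, since 54.1% of its 50-base words occur in other transcripts, most of them in Gm3375.

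**Figure D4:**
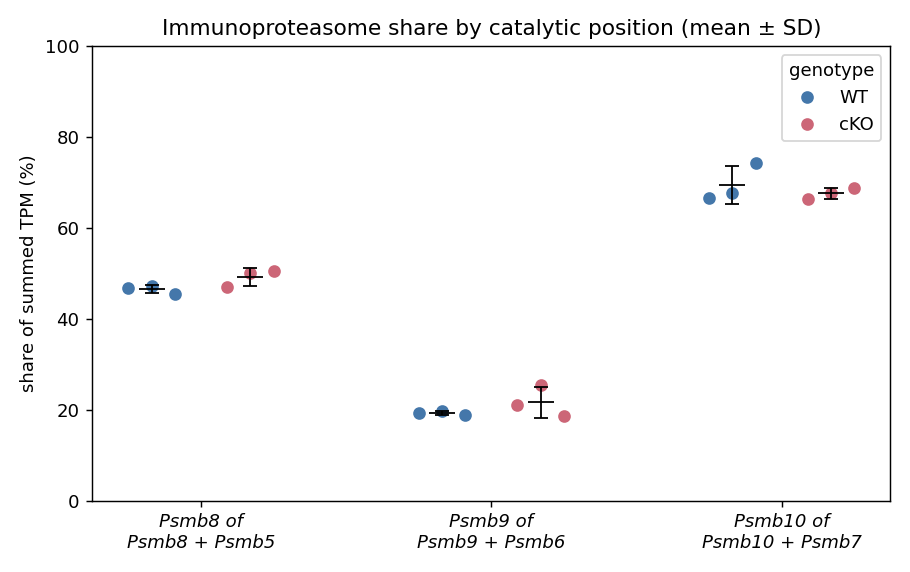
Share of each immunoproteasome subunit in the summed TPM of that subunit and its standard counterpart, by library, with mean ± SD (n = 3 per group). WT and cKO points overlap at all 3 positions, which span 45.5% to 50.6% for Psmb8, 18.6% to 25.4% for Psmb9 and 66.3% to 74.3% for Psmb10.

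The standard catalytic genes themselves all had fold changes below 0 and none passed. Psmb6 averaged 149 ± 14.2 CPM in WT against 130.4 ± 20.7 CPM in cKO (−0.19 on the log2 scale, SE 0.115, edgeR adjusted p = 0.705) and Psmb5 72.9 ± 5.95 against 66.1 ± 1.73 CPM (−0.14, SE 0.0877, adjusted p = 0.708). Without cKO library 2 the value for Psmb6 was −0.063, and without WT library 2 it was −0.11. Psmb5 had −0.092 without WT library 2. Psmb7 had −0.067 (SE 0.154) and Psmb11, the thymoproteasome subunit of cortical epithelium, −0.068 (SE 0.187). Of the 11 structural subunits of the core particle none passed, with a median of −0.0030. Psma2, an alpha ring subunit, had the smallest p of all 81 related genes examined, with 44.7, 54.4 and 56.4 TPM in WT and 65.3, 67.2 and 74.0 TPM in cKO. All 3 cKO libraries lay above all 3 WT libraries, but its adjusted p was 0.335 (log2 fold change 0.38, SE 0.109), and Psma7, next by p among the 11 structural subunits, had 0.17 (SE 0.195, adjusted p = 0.870). Psma2 was called by edgeR with no filter on low counts (adjusted p = 0.0488) and with the replicate block (adjusted p = 0.0361), and not by DESeq2 (adjusted p = 0.136). Of 9 activator and assembly genes none passed (median −0.082), and the smallest p were those of the assembly chaperones Psmg4 (−0.28, SE 0.146, adjusted p = 0.644) and Psmg3 (−0.24, SE 0.148, adjusted p = 0.702).

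Among 6 further loading and trimming genes none passed (median 0.063). Lnpep, which encodes a peptide-trimming aminopeptidase of endosomes, had 24.2, 22.1 and 21.2 TPM in WT and 26.5, 27.6 and 26.5 TPM in cKO, so the groups did not overlap (log2 fold change 0.23, SE 0.0749, adjusted p = 0.412). Tapbpl, the tapasin-like editor TAPBPR, had 90.1, 111 and 98.6 TPM in WT and 113, 122 and 123 TPM in cKO (0.23, SE 0.0983, adjusted p = 0.558). Its CPM ranges overlapped. Erap1, which trims peptides in the endoplasmic reticulum and whose human counterpart has been linked to p53, averaged 135 ± 11.1 CPM in WT against 146 ± 9.43 CPM in cKO (0.11, SE 0.0867, 95% interval −0.082 to 0.29, adjusted p = 0.797).

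None of 21 nonclassical class I and class I-like genes passed (median 0.046, 13 above 0). The groups did not overlap for 2 of the 21, beside 14.4% of all genes: H2-T3 was lower in cKO (log2 fold change −0.39, SE 0.178, edgeR adjusted p = 0.586) and H2-T24 higher (0.36, SE 0.184, adjusted p = 0.639), both named after their values were seen. The smallest p were those of 2 genes whose groups overlapped in CPM. H2-Q2 had 0.32 (SE 0.125, adjusted p = 0.511) and Cd1d1, which presents lipids, 0.31 (SE 0.109, adjusted p = 0.452). Both share sequence with close relatives, in 16.1% and 19.1% of their 50-base words. H2-T23, the mouse Qa-1 gene, averaged 437 ± 29.6 CPM in WT against 434 ± 6.97 CPM in cKO (−0.0083, SE 0.0756, adjusted p = 0.990). H2-M2 was among the higher of these genes, at 489, 651 and 591 TPM in WT and 628, 784 and 691 TPM in cKO, and was named after its values were seen (log2 fold change 0.25, SE 0.119, adjusted p = 0.600).

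None of 17 regulators of class I genes passed either (median −0.0084), nor any of 13 genes of interferon receptors and signalling (median 0.091). Irf1, which drives class I genes downstream of interferon, averaged 291 ± 10.3 CPM in WT against 311 ± 22.8 CPM in cKO (0.094, SE 0.0786, adjusted p = 0.803). Ciita, the class II counterpart of Nlrc5, had −0.011 (SE 0.0825, adjusted p = 0.988). The smallest p among regulators were those of Irf2, which binds the same sites as Irf1 (0.22, SE 0.0866, adjusted p = 0.512), and Nfyb, a subunit of the factor that binds the Y box marked above (−0.29, SE 0.115, adjusted p = 0.523). Those of the interferon group were Socs1, an inhibitor of interferon signalling (−0.18, SE 0.0922, adjusted p = 0.651), and the kinase gene Jak2 (0.17, SE 0.0936, adjusted p = 0.656).

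Counted together, the 81 related genes held 0 past the threshold in either direction and 8 with an unadjusted p under 0.05, which is 8 of 81 beside 8.51% of all genes tested. Of these 81 genes 11 did not overlap between groups, beside 14.4% of all genes, and the median log2 fold change was 0.0081. Among the markers of the sorted cells and their neighbours none passed; the smallest adjusted p was that of Foxn1 (−0.54, SE 0.0869, adjusted p = 0.0506), and Aire had −0.32 (SE 0.123, adjusted p = 0.516) and Epcam 0.18 (SE 0.0808, adjusted p = 0.582). Foxn1 was called under 6 of the 16 alternatives: DESeq2 (adjusted p = 0.00035), and edgeR with no filter (9.8e-05), the replicate block (0.00242), upper-quartile scaling (0.0393), 1 CPM in 3 libraries (0.0448) and library totals (0.047). Ly75 had 0.16 (SE 0.129). For the 35 markers of thymocytes, B cells, myeloid cells, fibroblasts and endothelium, none passed and the median was −0.061.

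Between replicates, the members' median coefficient of variation was 9.36% in WT and 5.89% in cKO, against 12.9% and 14.01% over all genes tested and 6.16% and 7.12% over the 3423 genes at or above the level of the lowest member. The lowest values were 0.409% for H2-K1 and 0.547% for Tapbp in cKO, and the highest was 32.0% for Psmb10 in WT. The 5 other genes whose profile over the 6 libraries lay nearest to the mean profile of the members were Ubb, 1110038F14Rik, Klhl3, Gm8797 and Gm1821. Their root mean square distance was 0.0211 to 0.0252 on the log2 CPM scale, against 0.0350 for H2-D1, 0.277 for Psmb10 and a median of 0.218 over all genes tested. The mean profile itself ran only from −0.11 in WT library 1 to 0.097 in WT library 2.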

How the data were processed

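The authors deposited counts of reads per gene for 6 libraries and a table of the whole series with the same counts and TPM. The tools named in the submitters' processing notes are TopHat2 2.1.1, SAMtools 1.9 and Subread 2.0.1, with the build mm10. Per the file headers, featureCounts 2.0.0 counted them over exons of Ensembl release 99 (GRCm38), without strand, with a read on several genes counted for each and the option for reads with several alignments not set. The deposited counts agreed in all 6 columns for 51810 of 51810 genes of the table, and the deposited TPM matched counts per kilobase scaled to a fixed sum (within 0.000834% for values over 1). Mitochondrial genes were listed at 0.

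Counts of 55385 genes were tested with edgeR 4.0.16 (R 4.3.3; TMM, filterByExpr, robust quasi-likelihood F test), Benjamini-Hochberg adjusted over 28543 genes at 0.05, without the replicate number. SE is the log2 fold change over the square root of F, and intervals (95%) use the test's degrees of freedom. DESeq2 1.42.0 and limma-voom 3.58.1 were alternatives; the fit was tested on simulated data. Ratios of TPM were compared with 2-sided exact permutation tests (3 against 3, smallest p 0.1). Total counts were 45457892 to 50128045, and a floor of 3 counts is 0.0598 to 0.0660 CPM, counting error only. Shared 50-base words and principal transcripts came from GENCODE M21, and promoter windows from RefSeq (GRCm38.p6). The members and lists were chosen with earlier results of these data known. Named genes were the 10 members, Trp53, 9 fixed partners (one of which is not reported here), and per list the genes past the threshold or else the 2 with the smallest p. Genes named only as overlap or sequence partners, marker levels and the genes nearest in profile stand outside that rule. So do H2-M2, H2-M3, H2-T3 and H2-T24.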

Additional observations from a re-analysis of the deposited data

How the results depend on the processing

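None of the 10 members was called under any of the 16 alternatives. Without WT library 1, and again without WT library 2, 1 member had an unadjusted p under 0.05, and in the other 14 none did. The number of genes called over all genes did move: from 17 to 160 with no filter on low counts, 6 without robust estimation, 5 with limma-voom, 177 with DESeq2, 203 with the replicate block, and 6 to 16 with one library left out; the cause was not tested. The replicate numbers do not pair the samples by the labels, and same-numbered libraries correlated at 0.113, 0.0544 and 0.0755 in their deviations from the group means, although every library correlated best with its own number. In paired form the 7 ratios and sums gave exact sign-flip p of 0.25 to 0.75, where 0.25 is the smallest possible. Differences near 0 changed sign. H2-K1 had a log2 fold change of −0.003036 with upper-quartile scaling and −0.009506 with library totals, and Psmb8 −0.005228 with library totals. Psmb9 had 0.0009702 with RLE scaling, 0.001385 with the replicate block, 0.001184 with limma-voom and 0.0009672 with DESeq2. With one library left out in turn, the log2 fold change ran over −0.01609 to 0.04511 for H2-K1, −0.02801 to 0.05398 for H2-D1, −0.07425 to 0.003798 for Tap1, −0.00324 to 0.08704 for Tap2, −0.04332 to 0.08551 for Psmb8, −0.06995 to 0.09902 for Psmb9, −0.1334 to 0.05689 for Nlrc5, −0.2298 to 0.09218 for Psmb7, −0.2684 to 0.06748 for Psmb11, −0.07553 to 0.05512 for Ciita and −0.06111 to 0.03504 for H2-T23. The difference in the Psmb10 share ran over −3.323 to 0.5781 percentage points, and that in the H2-K1 share over −0.61 to 0.2101. With 3 libraries a group, none of the exact tests could pass 0.05. Principal transcript lengths were chosen as an alternative after the data were seen.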
